A study of Homo sapiens with 15 samples.

Results

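The genes described here are FOS, FOSB, FOSL1, FOSL2, JUN, JUNB, JUND, EGR1, ARC and IER2, that is, the FOS and JUN families of the transcription factor AP-1 with 3 further immediate early genes. They were chosen by name, through the Ensembl identifiers of the deposited table, and are 10 of its 62754 gene rows. All 10 had reads, and 9 had enough to be among the 19781 genes tested, FOSL1 being the exception. RNA-seq was done on NCI-H69, an established human small cell lung cancer line of neuroendocrine type that grows as floating aggregates, in 3 groups of 3 libraries: cells given FB23-2, cells given CS2 and cells given DMSO, the solvent control. The series names both compounds as inhibitors of FTO, an RNA demethylase that removes m6A. CS2 is the drug brequinar, best known for blocking the pyrimidine synthesis enzyme DHODH. The series design calls the libraries biological replicates of each condition, the labels state neither dose nor time of treatment, and the H82 line that the design also names is not analysed here.

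AP-1 is a dimer of basic leucine zipper (bZIP) proteins, made of a FOS family and a JUN family protein or of JUN family proteins alone, that binds the sequence TGACTCA. FOS, FOSB, JUN, JUNB, EGR1, ARC and IER2 are immediate early genes: growth factors, stress or neuronal activity raise their transcription within minutes, through kinases that act on factors already bound at their promoters, with no need for new protein. Their mRNAs are short-lived, and in a growing culture their level at harvest therefore depends on recent signals. JUND differs from the rest in being made steadily in most cells, and FOSL1 and FOSL2 usually follow later than FOS.

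Library totals were 32352835 to 43957839 counts with FB23-2, 29916267 to 33663742 with CS2 and 31404658 to 45022633 with DMSO, and 3 counts, the floor for a gene with none, corresponded to 0.0666 to 0.101 CPM, the count scaled to a common library total. FB23-2 replicate 2 stood apart in raw counts, where abundant genes weigh most. Its chi-square per degree of freedom was 47.06 and 45.05 against its partners, where other pairs within a group gave 4.11 to 13.14. By Pearson's r of log2 CPM it hardly did, at 0.9856 and 0.9861 against its partners, where CS2 pairs gave 0.9863 to 0.9872. Mitochondrial reads in FB23-2 replicate 2 were 11% of counts against 6.83% and 6.91% in the other FB23-2 libraries. CS2 libraries had 7.30% to 9.05% and DMSO libraries 5.18% to 5.69%. FTO mRNA averaged 58.3 ± 6.25 CPM with FB23-2, 39.8 ± 0.305 CPM with CS2 and 56.9 ± 1.62 CPM with DMSO (SD, n = 3 each), lower with CS2 than with DMSO (log2 fold change -0.52, adjusted p = 6.74e-05) but not past the threshold with FB23-2 (0.04, adjusted p = 0.754). An inhibitor need not change its target's mRNA, so this does not check the labels. All 12 neuroendocrine markers had reads in every group, summing to 2940 to 3110 CPM with FB23-2, 3610 to 3710 CPM with CS2 and 3580 to 3860 CPM with DMSO. YAP1, a marker of non-neuroendocrine small cell lines, was at 0 in every library. Of 8 fibroblast markers, COL3A1 and DCN were at 0 throughout, and the list summed to 10.6 to 15.4 CPM with FB23-2, 33.2 to 40.0 CPM with CS2 and 53.2 to 54.7 CPM with DMSO. Nearly all of that sum was COL1A2, a collagen gene, at 12 CPM with FB23-2, 35.1 CPM with CS2 and 53 CPM with DMSO, while COL1A1 was higher with FB23-2 than with DMSO (0.88, adjusted p = 0.0366). Blood markers summed to at most 2.80 CPM with FB23-2, 3.45 CPM with CS2 and 4.13 CPM with DMSO, with CD3E at 0 throughout. Endothelial markers summed to 0.175 to 0.479 CPM with FB23-2, 0.201 to 0.732 CPM with CS2 and 2.08 to 2.49 CPM with DMSO. The other non-neuroendocrine epithelial markers summed to 302 to 323 CPM with FB23-2, 499 to 523 CPM with CS2 and 417 to 438 CPM with DMSO. Most of that sum was EPCAM, at 196 CPM with FB23-2, 241 CPM with CS2 and 216 CPM with DMSO, and KRT19. KRT19 was at 38.3 CPM with FB23-2, 150 CPM with CS2 and 115 CPM with DMSO. It was lower with FB23-2 (-1.58, adjusted p = 3.17e-11) and higher with CS2 (0.39, adjusted p = 0.000997). AXL, REST, SFTPC and SCGB1A1 averaged at most 0.132 CPM in any group. The part of these marker differences in the results below was not tested.

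The promoters of 4 members are shown as examples of different outcomes. EGR1 carries the textbook promoter of a serum-responsive gene and was not past the threshold with either compound. FOS had the largest change of all members, JUN had similar fold changes with both compounds, and JUND was the only member called higher with FB23-2 than with CS2. Each line gives the 250 bases before the annotated start (RefSeq, GRCh38.p14), 5′ to 3′ on the gene's strand. Capitals mark CArG boxes (the site of serum response factor) in EGR1, the TATA box letters TATAAA in FOS, the AP-1-like site TGACATCA in JUN and the cAMP response element TGACGTCA in JUND.
EGR1: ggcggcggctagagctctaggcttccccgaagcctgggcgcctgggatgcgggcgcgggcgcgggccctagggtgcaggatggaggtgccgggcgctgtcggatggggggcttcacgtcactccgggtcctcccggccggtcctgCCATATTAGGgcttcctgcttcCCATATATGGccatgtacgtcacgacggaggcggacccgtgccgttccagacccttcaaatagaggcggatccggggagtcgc
FOS: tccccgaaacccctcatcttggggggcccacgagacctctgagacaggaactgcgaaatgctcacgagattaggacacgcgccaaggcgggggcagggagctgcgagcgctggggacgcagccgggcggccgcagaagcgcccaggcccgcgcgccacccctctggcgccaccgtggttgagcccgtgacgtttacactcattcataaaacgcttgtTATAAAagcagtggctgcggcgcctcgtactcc
JUN: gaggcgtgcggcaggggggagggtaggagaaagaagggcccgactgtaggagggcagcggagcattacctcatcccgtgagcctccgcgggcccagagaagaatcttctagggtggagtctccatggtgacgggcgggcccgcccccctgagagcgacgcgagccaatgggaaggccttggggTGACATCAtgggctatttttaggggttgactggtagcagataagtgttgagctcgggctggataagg
JUND: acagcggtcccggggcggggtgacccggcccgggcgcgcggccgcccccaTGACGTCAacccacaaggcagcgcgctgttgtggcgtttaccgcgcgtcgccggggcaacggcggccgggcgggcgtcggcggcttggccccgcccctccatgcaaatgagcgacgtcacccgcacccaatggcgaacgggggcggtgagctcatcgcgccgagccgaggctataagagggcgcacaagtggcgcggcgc
These windows are chr5:138465229-138465478 on the plus strand for EGR1, chr14:75278578-75278827 on the plus strand for FOS, chr1:58784048-58784297 on the minus strand for JUN and chr19:18281623-18281872 on the minus strand for JUND.

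Motifs were searched on both strands in windows of 250 bases before to 50 after the start, which 8 of the 10 members had (not FOSL1 or ARC), with the start base counted as 0. EGR1 held 2 CArG boxes, at -105 to -96 and -83 to -74, and 1.29% of 27305 promoters held any. None was found in the FOS window, but bases further upstream were not searched, so this does not show that FOS lacks one. JUN held TGACATCA at -67 to -60 (2.71% of promoters) and JUND held TGACGTCA at -200 to -193 (1.98%). TATAAA stood at -33 in FOS, -30 in FOSB and -31 in JUNB (12% of promoters), and CCAAT at -87 in JUN, -67 in JUNB and -74 in JUND (35.7%). FOSL2 held the AP-1 letters TGACTCA at 4 to 10 after the start (4.92%). The ETS core CCGGAA was found in FOSB and IER2 (17.6%), and the EGR1 site GCGTGGGCG in none of the 8 (0.784% of all promoters). The motifs searched do not overlap one another in these windows, and a match in letters is a description of the sequence only.

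At the other end of the transcript, AU-rich elements, built from repeats of ATTTA, are known to mark short-lived mRNAs such as FOS. The 3′ UTR held 9 ATTTA in FOSL2, 5 in FOS, 3 each in FOSB and JUN, 2 in JUNB, 1 each in FOSL1, JUND and EGR1, and 0 in ARC and IER2. These counts are not scaled for length: the 3′ UTR is 4864 bases in FOSL2 and 806 in FOS, so FOS is the denser of the pair. Over 13876 protein-coding genes, 71.7% had at least 1 and 45.6% at least 3. The densest stretches of the FOS and FOSL2 3′ UTRs, with ATTTA in capitals, lie on the plus strand at chr14:75282059-75282088 and chr2:28416349-28416378 (GENCODE 29, GRCh38):
FOS: gtgtttttaATTTATTTAttaagatggatt
FOSL2: attgacATTTAttttattATTTAttttaaa
GGAC, the core of the common m6A consensus, occurred 8.82 times per kb of the longest ARC transcript, 8.24 times in JUNB, 5.83 in FOSB and 5.81 in FOSL2. It occurred 5.11 times per kb in IER2, 4.29 in JUND, 4.24 in JUN, 3.24 in FOS, 3.19 in EGR1 and 1.8 in FOSL1. The median over all those genes was 3.73 per kb, with quartiles of 2.52 and 5.39. The number of letters says nothing of whether a base is methylated.

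With FB23-2, 4 of the 10 members were higher than with DMSO (FOS, FOSL2, JUN and JUND), 0 were lower, 5 were not past the threshold and FOSL1 was not tested. With CS2, 8 were higher than with DMSO, 0 were lower and EGR1 was not past the threshold. Without DMSO replicate 2, or without DMSO replicate 3, 5 were higher with CS2, FOSB, FOSL2 and JUND losing their calls. Over all genes tested the calls were many: 25.4% were higher and 26.7% lower with FB23-2, and 24.3% higher and 25.3% lower with CS2, at an adjusted p under 0.05 in edgeR's quasi-likelihood test. The median log2 fold change of the 9 tested members was 0.19 with FB23-2 and 0.56 with CS2, where the median of all genes was 0 in each. Both comparisons use the same 3 DMSO libraries. By libraries that do not overlap, 3 members (FOS, FOSL2 and JUND) were higher with FB23-2, where 29.5% of all genes were so, and 7 with CS2 (FOS, FOSB, FOSL2, JUN, JUNB, ARC and IER2), where 29.9% were; 0 members were lower in this way, where 30.3% and 30.8% of all genes were. The members are short genes, 9 of the 10 spanning 10 kb or less. Of 2686 tested protein-coding genes of that span, 19.5% were higher and 37.0% lower with FB23-2, and 32.6% higher and 18.5% lower with CS2. With a correction for gene span and GC content, 6 members stayed higher with CS2, with FOSL2 (0.18, adjusted p = 0.163) and JUND (0.14, adjusted p = 0.346) no longer past the threshold. The same correction kept the 4 calls with FB23-2, with larger values for JUN (0.51, adjusted p = 0.000406) and JUND (1.06, adjusted p = 9.63e-06). In these bulk libraries, fewer cells expressing a gene and less RNA per cell cannot be told apart.

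**Figure D1:**
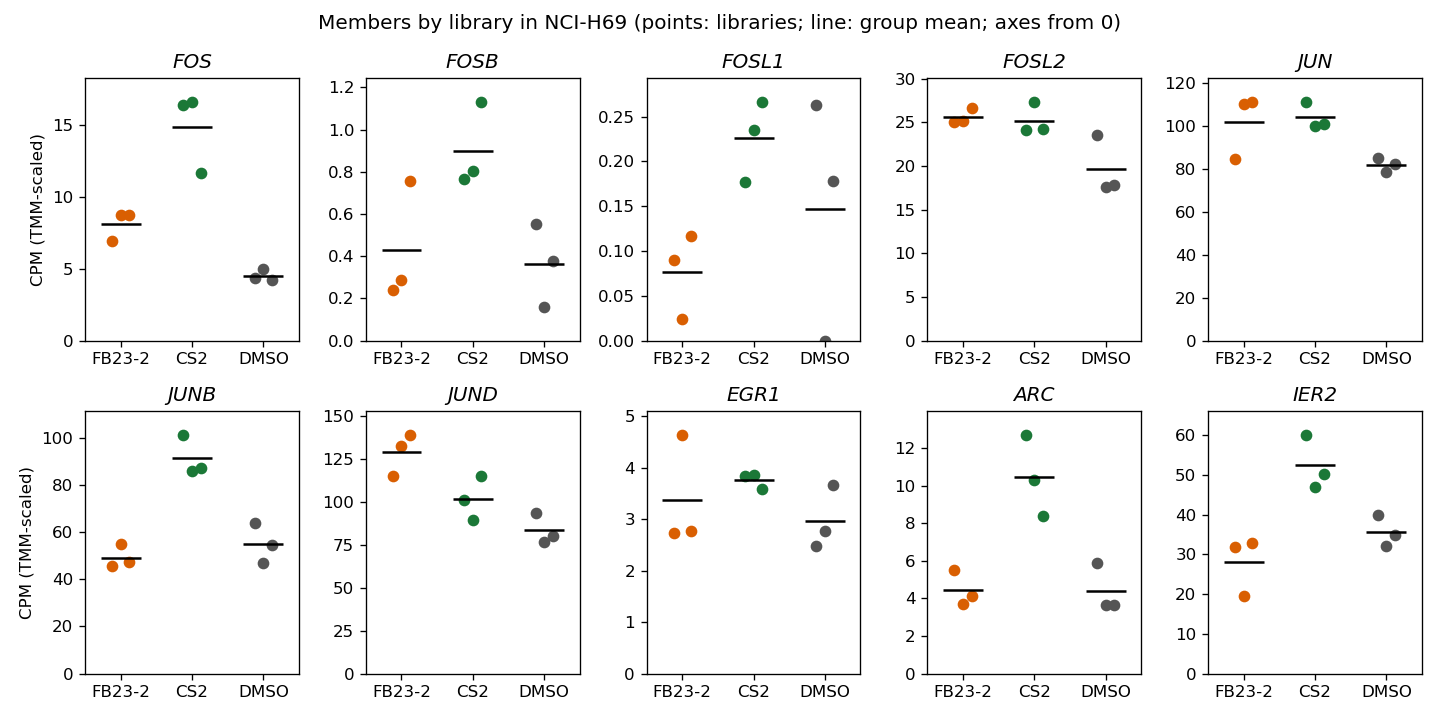
Level of each of the 10 members in every library, in TMM-scaled CPM on axes from 0, with FB23-2, CS2 and DMSO from left to right, points for the 3 libraries of a group and a line for its mean. FOS, JUNB, ARC and IER2 stand highest in all 3 CS2 libraries, JUND stands highest with FB23-2 in mean, and FOSL1 stays under 0.27 CPM everywhere.

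FOS (ENSG00000170345, chromosome 14, 75278774 to 75282230, plus strand, 4 exons at most, in GENCODE 29 on GRCh38 as for all genes here), the founding FOS family member, rose with both compounds. It had 6.95, 8.75 and 8.75 CPM with FB23-2, 16.4, 16.6 and 11.7 CPM with CS2, and 4.39, 4.96 and 4.22 CPM with DMSO. Every treated library was above every DMSO library, and every CS2 library was above every FB23-2 library. The log2 fold change was 0.85 ± 0.16 (SE) with FB23-2 (adjusted p = 0.000131) and 1.72 ± 0.15 with CS2 (adjusted p = 2.12e-08). Only 1.87% of the genes tested had a larger positive change with CS2. No alternative of the 19 tried for FOS ended any of its calls.

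FOSB (ENSG00000125740, chromosome 19, 45467995 to 45475179, plus strand), whose protein also exists as the truncated, long-lived form deltaFosB, was close to the limit of detection. It had 0.239, 0.288 and 0.758 CPM with FB23-2, 0.766, 0.805 and 1.13 CPM with CS2, and 0.553, 0.159 and 0.378 CPM with DMSO, from 46, 84 and 43 counts in all. The CS2 libraries were above the other 6, the nearest being FB23-2 replicate 3. FOSB rose with CS2 (log2 fold change 1.27 ± 0.46, adjusted p = 0.0267) and with FB23-2 was not past the threshold (0.19 ± 0.49, adjusted p = 0.758, 95% interval -0.76 to 1.15). It missed the threshold with CS2 when CS2 replicate 3 was left out (1.08, adjusted p = 0.101), and likewise for DMSO replicate 2 (0.95, adjusted p = 0.118) and DMSO replicate 3 (1.29, adjusted p = 0.0659).

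FOSL1 (ENSG00000175592, chromosome 11, 65892049 to 65900573, minus strand), which encodes FRA1, a FOS family protein of mesenchymal and RAS-driven epithelial cells, had 47 counts over the 9 libraries. That is 3, 1 and 4 counts with FB23-2, 6, 7 and 8 with CS2, and 10, 0 and 8 with DMSO, too few to test. The libraries with each compound overlapped those with DMSO, and all 3 FB23-2 libraries were below all 3 CS2 libraries, a difference between counts too low for a test.

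FOSL2 (ENSG00000075426, chromosome 2, 28392448 to 28417312, plus strand), which encodes FRA2 and is the longest member at 24.86 kb, rose by a similar small amount with each compound. It had 25, 25.2 and 26.6 CPM with FB23-2, 24.1, 27.3 and 24.2 CPM with CS2, and 23.5, 17.6 and 17.8 CPM with DMSO. No library with either compound was as low as any DMSO library, although DMSO replicate 1 came within 2 CPM of both groups. The log2 fold change was 0.38 ± 0.11 with FB23-2 (adjusted p = 0.0077) and 0.36 ± 0.11 with CS2 (adjusted p = 0.0127). Leaving out DMSO replicate 2 ended the FB23-2 call (0.31, adjusted p = 0.0549), as did leaving out DMSO replicate 3 (0.32, adjusted p = 0.0575), and the CS2 call ended without those (0.29 each, adjusted p = 0.0811 and 0.0815) or without CS2 replicate 2 (0.30, adjusted p = 0.0677).

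**Figure D2:**
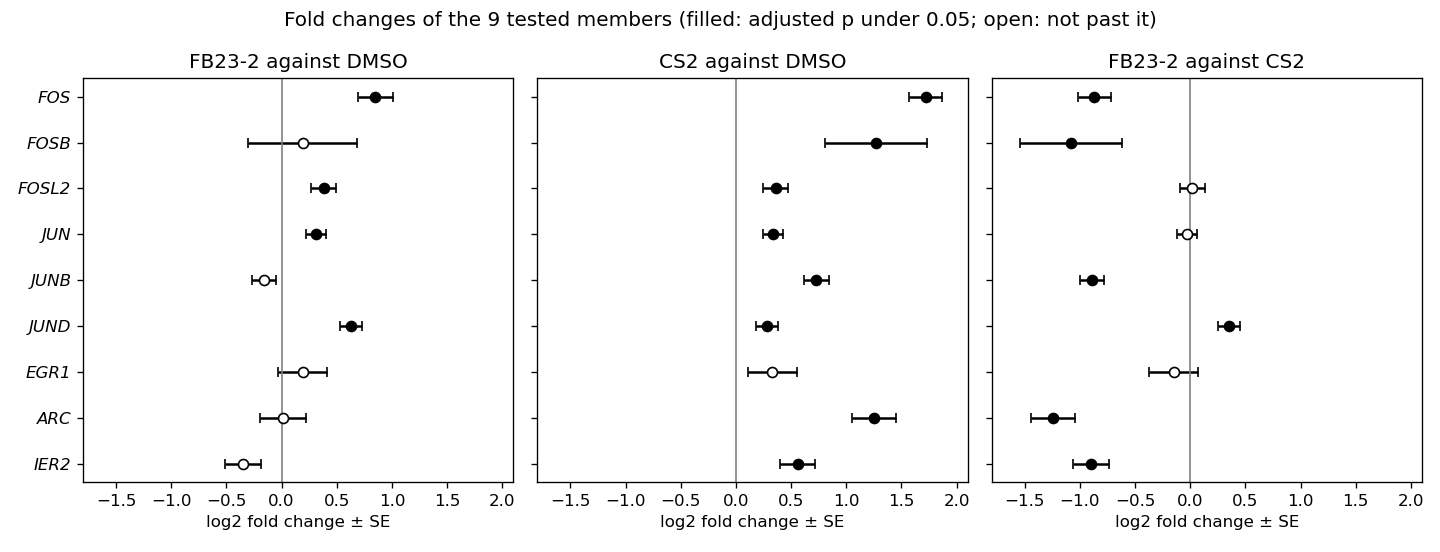
Log2 fold change ± SE (edgeR) of the 9 tested members in FB23-2 against DMSO, CS2 against DMSO and FB23-2 against CS2, filled where the adjusted p is under 0.05. FOS, FOSB, JUNB, ARC and IER2 lie below 0 in the direct comparison of FB23-2 with CS2, JUND lies above it, and FOSL2, JUN and EGR1 are open points near 0.

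JUN (ENSG00000177606, chromosome 1, 58780788 to 58784327, minus strand, a gene of 1 exon), the JUN family member that activates its own promoter through the site shown above, changed little. It had 84.6, 110 and 111 CPM with FB23-2, 111, 99.9 and 101 CPM with CS2, and 85.2, 78.4 and 82 CPM with DMSO. All CS2 libraries were above all DMSO libraries, while FB23-2 replicate 1 lay inside the DMSO range. JUN rose by 0.31 ± 0.09 on the log2 scale with FB23-2 (adjusted p = 0.00867) and by 0.34 ± 0.09 with CS2 (adjusted p = 0.00507).

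JUNB (ENSG00000171223, chromosome 19, 12791496 to 12793315, plus strand, 1 exon), an AP-1 subunit that often opposes JUN and restrains division, rose with CS2. It had 45.4, 54.7 and 47.4 CPM with FB23-2, 101, 85.8 and 87.0 CPM with CS2, and 63.8, 46.9 and 54.4 CPM with DMSO. The CS2 libraries stood clear of the rest, and the FB23-2 and DMSO libraries overlapped. JUNB differed from DMSO by a log2 fold change of 0.73 ± 0.11 with CS2 (adjusted p = 1.22e-05) and -0.16 ± 0.11 with FB23-2 (adjusted p = 0.212, 95% interval -0.37 to 0.05). Without FB23-2 replicate 2, the library with most mitochondrial reads, JUNB was just past the threshold as lower with FB23-2 (-0.24, adjusted p = 0.0499). Of the JUNB exon, 14.2% overlaps HOOK2 on the opposite strand, which had 1360 to 2481 counts a library beside 1476 to 3431 for JUNB. HOOK2 was itself higher with FB23-2 (0.59, adjusted p = 0.000237) and CS2 (0.40, adjusted p = 0.00662), and no label states whether counting used the strand, so reads in the overlap cannot be assigned to either gene.

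JUND (ENSG00000130522, chromosome 19, 18279760 to 18281622, minus strand), the steadily expressed JUN family member that is known to protect cells from oxidative stress, rose with both compounds. It had 115, 133 and 139 CPM with FB23-2, 101, 89.4 and 115 CPM with CS2, and 93.9, 76.5 and 80.3 CPM with DMSO. The FB23-2 libraries were above all DMSO libraries, and the CS2 and DMSO libraries overlapped at CS2 replicate 2. Its log2 fold change was 0.63 ± 0.10 with FB23-2 (adjusted p = 3.22e-05) and 0.28 ± 0.10 with CS2 (adjusted p = 0.0257). Of these calls against DMSO, only that with CS2 was lost when a library was left out. The CS2 value was 0.19 without CS2 replicate 3 (adjusted p = 0.155), 0.22 without DMSO replicate 2 (adjusted p = 0.136) and 0.25 without DMSO replicate 3 (adjusted p = 0.0973).

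EGR1 (ENSG00000120738, chromosome 5, 138465490 to 138469315, plus strand, 2 exons), a zinc finger factor whose promoter responds to serum through the CArG boxes printed above, did not pass the threshold with either compound. It had 2.74, 4.63 and 2.77 CPM with FB23-2, 3.83, 3.86 and 3.59 CPM with CS2, and 2.47, 2.77 and 3.66 CPM with DMSO. The highest FB23-2 value was in replicate 2, and all 3 groups overlapped. The log2 fold change was 0.19 ± 0.22 with FB23-2 (adjusted p = 0.483, 95% interval -0.24 to 0.61) and 0.33 ± 0.22 with CS2 (adjusted p = 0.213, 95% interval -0.09 to 0.76). Without FB23-2 replicate 2 the FB23-2 value was -0.11 (adjusted p = 0.69).

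ARC (ENSG00000198576, chromosome 8, 142611044 to 142614472, minus strand), which encodes a postsynaptic protein made in active neurons and was expressed at a low level in these neuroendocrine cells, rose with CS2. It had 5.52, 3.69 and 4.11 CPM with FB23-2, 12.7, 10.3 and 8.38 CPM with CS2, and 5.89, 3.66 and 3.66 CPM with DMSO. Every CS2 library was above every other library, and the FB23-2 libraries lay inside the DMSO range. ARC changed by 1.25 ± 0.20 on the log2 scale with CS2 (adjusted p = 3.75e-05), exceeded by 4.32% of genes tested, and its value was 0.01 ± 0.21 with FB23-2 (adjusted p = 0.985, 95% interval -0.40 to 0.41).

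IER2 (ENSG00000160888, chromosome 19, 13150415 to 13154908, plus strand), a nuclear protein of the early growth factor response, rose with CS2. It had 31.8, 19.6 and 32.9 CPM with FB23-2, 60.0, 47.0 and 50.3 CPM with CS2, and 39.9, 32.0 and 34.9 CPM with DMSO. The CS2 libraries were above all others, and FB23-2 replicate 2 was the lowest of the 9. The log2 fold change was 0.56 ± 0.16 with CS2 (adjusted p = 0.0106) and -0.35 ± 0.16 with FB23-2 (adjusted p = 0.0923, 95% interval -0.67 to -0.02). That interval uses a normal quantile and is narrower than edgeR's quasi-likelihood test implies, whose unadjusted p was 0.0535. Leaving out CS2 replicate 1 ended the CS2 call (0.45, adjusted p = 0.0532). With FB23-2 the value was -0.14 without FB23-2 replicate 2 (adjusted p = 0.281) and was past the threshold without FB23-2 replicate 3 (-0.46, adjusted p = 0.0347). An antisense gene, AC011446.2, overlaps 30.8% of the IER2 exon bases and had 0 counts in every library.

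Set directly against CS2, FB23-2 gave lower levels of 5 members and a higher level of 1, where 30.0% of all genes tested were lower and 29.7% higher. The members' median log2 fold change was -0.87 and that of all genes 0.01. The same 5 of the tested members had every FB23-2 library below every CS2 library, where 31.6% of all genes did, and JUND had every FB23-2 library above, where 31.3% of all genes did. Among protein-coding genes of 10 kb or less, 46.8% were lower and 17.6% higher. Since doses and times are not given, the contrast is between these libraries and not between matched doses. Lower with FB23-2 than with CS2 were ARC (-1.24 ± 0.20, adjusted p = 2.66e-05), FOSB (-1.08 ± 0.46, adjusted p = 0.0477), IER2 (-0.90 ± 0.16, adjusted p = 0.000262), JUNB (-0.89 ± 0.11, adjusted p = 6.36e-07) and FOS (-0.87 ± 0.15, adjusted p = 4.32e-05). JUND was higher with FB23-2 than with CS2 (0.35 ± 0.10, adjusted p = 0.00571), with FB23-2 replicate 1 and CS2 replicate 3 both at 115 CPM when rounded. For JUN the difference was -0.03 (95% interval -0.21 to 0.16), for FOSL2 0.02 (-0.20 to 0.25) and for EGR1 -0.15 (-0.57 to 0.28), none of them past the threshold. FOSB lost its call in 10 of 18 alternatives, including without any 1 of the 3 CS2 libraries (adjusted p = 0.0558, 0.068 and 0.164), without FB23-2 replicate 1 (0.159) or 2 (0.135) and without DMSO replicate 3 (0.0568). JUND lost its call without CS2 replicate 2 (0.26, adjusted p = 0.0515). The other 4 kept their calls in every alternative tried. With the span and GC correction the sizes moved, to -0.46 for JUNB (adjusted p = 0.00703), -0.73 for ARC (adjusted p = 0.00218), -0.52 for IER2 (adjusted p = 0.00101) and 0.91 for JUND (adjusted p = 2.85e-05).

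Levels of different genes were compared as CPM per kb of exon (written RPKM), over the union of a gene's annotated exons. JUND led in every group, at 69.3 ± 6.87 RPKM with FB23-2, 54.5 ± 6.82 with CS2 and 44.9 ± 4.90 with DMSO (SD, n = 3 each). Next with DMSO came JUNB at 30.3, JUN at 23.2, IER2 at 11.6 and FOSL2 at 2.74 RPKM, each clear of its neighbours over the 3 libraries. ARC (1.47) and FOS (1.40) overlapped with DMSO, EGR1 followed at 0.947, and FOSL1 and FOSB were both under 0.08 RPKM. With CS2, JUNB at 50.2 RPKM overlapped JUND, JUN at 29.3 and IER2 at 17.1 followed, FOS at 4.61 overlapped FOSL2 at 3.52, which overlapped ARC at 3.50, and EGR1 was at 1.2. With FB23-2, JUN at 28.8 overlapped JUNB at 27.0, then came IER2 at 9.13, FOSL2 at 3.58 and FOS at 2.52 RPKM, and ARC at 1.48 overlapped EGR1 at 1.08. FOSB and FOSL1 overlapped at the bottom of all 3 groups.

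The makeup of FOS and JUN family mRNA differed between groups in these libraries, and AP-1 protein was not measured. The FOS family summed to 6.22 ± 0.444 RPKM with FB23-2, 8.41 ± 0.953 with CS2 and 4.28 ± 0.525 with DMSO. FOS itself made up 37.5% to 42.9% of that sum with FB23-2, 49.4% to 58.4% with CS2 and 27.8% to 38.2% with DMSO, the FB23-2 and DMSO ranges overlapping. FOSL2 was the larger share with FB23-2 (57.8%) and DMSO (63.8%) and the smaller with CS2 (42.1%). The JUN family summed to 125 ± 12.7 RPKM with FB23-2, 134 ± 9.42 with CS2 and 98.3 ± 10.4 with DMSO. JUND made up 53.9% to 56.6% of it with FB23-2, 38.3% to 44.7% with CS2 and 44.8% to 46.1% with DMSO. These ranges do not overlap, although those with CS2 and DMSO nearly meet. JUNB was the mirror image, at 19.7% to 22.6% with FB23-2, 34.7% to 39.5% with CS2 and 29% to 32% with DMSO, while the JUN share stayed between 20.7% and 24.9% in all libraries. FOS family mRNA amounted to 4.99% of JUN family mRNA with FB23-2, 6.32% with CS2 and 4.36% with DMSO. These shares are descriptions of mRNA, with no test. Taking the longest transcript as the length in place of all exons raised the FOS level to 3.77 RPKM with FB23-2, 6.91 with CS2 and 2.1 with DMSO. On that length FOSL2 was at 3.82 RPKM with FB23-2, overlapping FOS, so which of them is the larger share with FB23-2 depends on the length used.

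**Figure D3:**
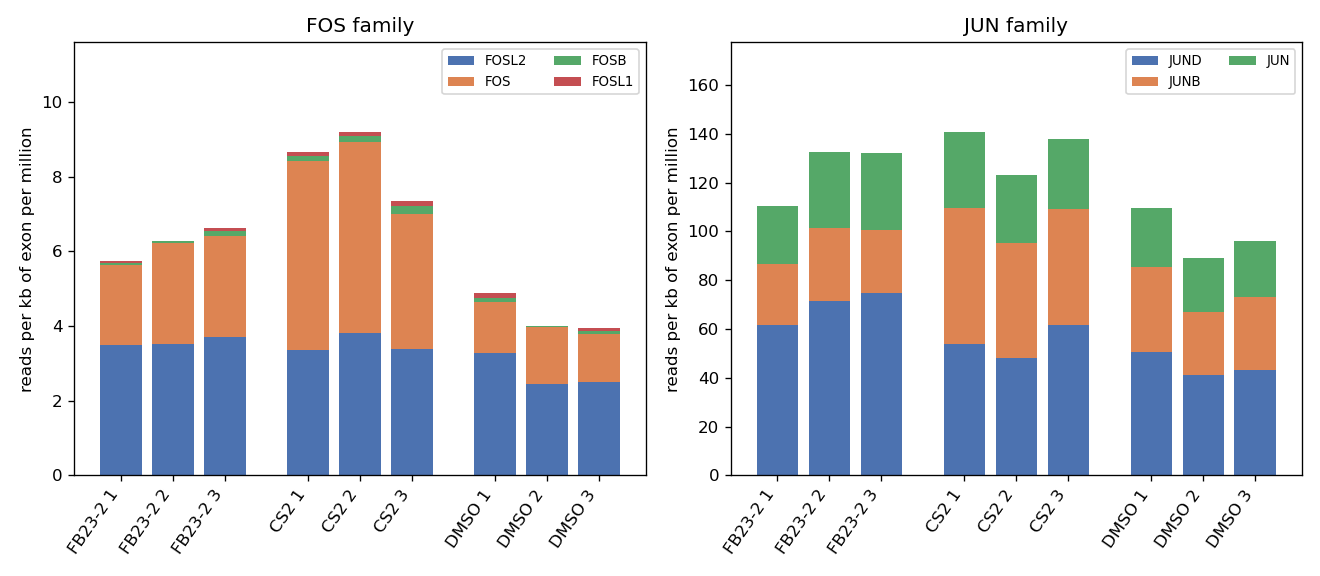
Stacked levels of the FOS family (left) and the JUN family (right) in each library, in RPKM on axes from 0, with the FB23-2, CS2 and DMSO libraries from left to right. FOS mRNA makes the CS2 bars of the FOS family the tallest, and JUND is on average the largest share of the JUN family bars with FB23-2 (55.4%), where JUNB is on average the smallest share (21.6%).

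Other immediate early genes and genes around AP-1 were counted in lists of textbook members, chosen with earlier results of these data known. The shares of all genes tested, to be read beside each list, were 25.4% higher and 26.7% lower with FB23-2. With CS2 they were 24.3% higher and 25.3% lower. Of 16 tested immediate early effectors, which are not transcription factors, 5 were higher and 4 lower with FB23-2 (median log2 fold change -0.04), and 12 were higher and 2 lower with CS2 (median 0.97). HBEGF, a growth factor that binds the EGF receptor, was higher with both (1.81 ± 0.21 with FB23-2, adjusted p = 7.19e-07, and 2.41 ± 0.21 with CS2, adjusted p = 1.45e-08). With CS2 the polo-like kinase gene PLK2 (1.75 ± 0.09), IER5L (1.66 ± 0.19) and the small GTPase gene RHOB (1.31 ± 0.10) were higher, with adjusted p of at most 4.25e-07. With FB23-2, RHOB was higher as well (0.47 ± 0.10, adjusted p = 0.00049), while PLK2 (0.11, adjusted p = 0.332) and IER5L (0.09, adjusted p = 0.715) were not past the threshold. ERRFI1, an inhibitor of the EGF receptor, was higher with FB23-2 (0.97 ± 0.15, adjusted p = 1.53e-05) and CS2 (1.11 ± 0.15, adjusted p = 3.3e-06). PHLDA1 was lower with FB23-2 (-0.92 ± 0.09, adjusted p = 6.67e-08) and CS2 (-1.08 ± 0.09, adjusted p = 9.68e-09). BTG2, an antiproliferative gene, was lower with FB23-2 (-0.92 ± 0.11, adjusted p = 5.61e-07) and higher with CS2 (0.43 ± 0.10, adjusted p = 0.00182). Directly between the compounds, 12 of these 16 were lower and 1 higher with FB23-2 than with CS2. Of all genes tested, 30.0% were lower and 29.7% higher in that comparison. Of protein-coding genes spanning 10 kb or less, 46.8% were lower and 17.6% higher in it. With CS2 against DMSO, 32.6% of those short genes were higher and 18.5% lower. The counts of effectors take no account of gene span.

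Among 13 other immediate early transcription factors, 4 were higher and 1 lower with FB23-2 (median -0.06), and 5 were higher and 2 lower with CS2 (median 0.28). ATF3, a bZIP factor of stress responses that pairs with JUN, was higher with FB23-2 (3.29 ± 0.13, adjusted p = 1.79e-13) and with CS2 (1.70 ± 0.13, adjusted p = 1.72e-09). NR4A2, an orphan nuclear receptor, was lower with FB23-2 (-0.57 ± 0.17, adjusted p = 0.00721) and higher with CS2 (0.78 ± 0.16, adjusted p = 0.000482). NFIL3, a bZIP repressor, was higher with FB23-2 (1.67 ± 0.14, adjusted p = 7.28e-09) and CS2 (0.53 ± 0.14, adjusted p = 0.00407). KLF6 was lower with CS2 (-0.65 ± 0.10, adjusted p = 1.37e-05), and with FB23-2 its value was -0.06 (adjusted p = 0.605).

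Of 12 tested bZIP genes whose proteins can pair with AP-1 subunits, 5 were higher and 1 lower with FB23-2 (median 0.24), and 4 were higher and 2 lower with CS2 (median 0.04). JDP2, a JUN dimerization partner that represses AP-1 sites, was higher with FB23-2 (3.91 ± 0.22, adjusted p = 2.05e-11) and with CS2 (1.29 ± 0.24, adjusted p = 0.000182). ATF4, the effector of the integrated stress response, was higher with FB23-2 (1.34 ± 0.08, adjusted p = 6.88e-11) and lower with CS2 (-0.56 ± 0.08, adjusted p = 8.17e-06). CREB5 was higher with FB23-2 (1.87 ± 0.15, adjusted p = 3.61e-09), where its value with CS2 was 0.06 (adjusted p = 0.757). ATF7 was lower with CS2 (-0.96 ± 0.10, adjusted p = 2.76e-07), and its value with FB23-2 was 0.21 (adjusted p = 0.0802).

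Upstream of the immediate early genes, 23 kinases and promoter-bound factors were tested, of which 6 were higher and 4 lower with FB23-2 (median 0) and 4 higher and 5 lower with CS2 (median -0.08). The stress kinase gene MAPK8, which encodes JNK1, was higher with FB23-2 (0.55 ± 0.09, adjusted p = 3.11e-05), and its value with CS2 was -0.13 (adjusted p = 0.249). MAPK10, the neuronal JNK gene, was lower with FB23-2 (-0.43 ± 0.12, adjusted p = 0.00371) and CS2 (-1.82 ± 0.12, adjusted p = 4.59e-10). MAPK3, which encodes ERK1, was lower with FB23-2 (-0.31 ± 0.09, adjusted p = 0.00789) and higher with CS2 (0.67 ± 0.09, adjusted p = 3.93e-06). MRTFB, a coactivator of serum response factor, was lower with FB23-2 (-0.45 ± 0.08, adjusted p = 0.000133) and CS2 (-0.87 ± 0.08, adjusted p = 5.52e-08).

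Of 19 tested feedback inhibitors, 5 were higher and 5 lower with FB23-2 (median 0.10), and 5 higher and 4 lower with CS2 (median 0.04). These counts are near the shares of all genes, 25.4% higher and 26.7% lower with FB23-2 and 24.3% and 25.3% with CS2. ZFP36, which binds AU-rich elements and speeds the decay of their mRNAs, was higher with FB23-2 (1.21 ± 0.22, adjusted p = 0.000101), and its value with CS2 was -0.13 (adjusted p = 0.664). The ERK phosphatase gene DUSP6 was lower with FB23-2 (-1.21 ± 0.17, adjusted p = 9.46e-06) and CS2 (-0.44 ± 0.17, adjusted p = 0.0367). DUSP2, a nuclear MAP kinase phosphatase, was lower with FB23-2 (-1.0 ± 0.20, adjusted p = 0.000288) and higher with CS2 (0.71 ± 0.18, adjusted p = 0.00315). NAB2, the corepressor of EGR1 and itself an EGR1 target, was higher with FB23-2 (0.86 ± 0.13, adjusted p = 2.25e-05) and CS2 (1.0 ± 0.13, adjusted p = 4.22e-06).

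Known target genes of AP-1 or EGR1 numbered 14 tested, with 6 higher and 4 lower with FB23-2 (median 0.27), and 6 higher and 0 lower with CS2 (median 0.58). LMNA, which encodes nuclear lamins, was higher with FB23-2 (1.09 ± 0.10, adjusted p = 1.77e-08) and CS2 (1.38 ± 0.10, adjusted p = 8.57e-10). HMOX1, the heme oxygenase of oxidative stress, was higher with FB23-2 (1.63 ± 0.18, adjusted p = 2.6e-07) and CS2 (0.50 ± 0.18, adjusted p = 0.0293). The matrix protease gene MMP10 was lower with FB23-2 (-2.56 ± 0.16, adjusted p = 1.05e-10), and its value with CS2 was 0.31 (adjusted p = 0.0646). TIMP1, a protease inhibitor, was higher with CS2 (1.05 ± 0.17, adjusted p = 3.91e-05), and with FB23-2 its value was 0.25 ± 0.17 (adjusted p = 0.23).

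Genes that neuronal activity switches on, the class to which ARC belongs, numbered 13 tested, with 6 higher and 2 lower with FB23-2 (median 0.38), and 8 higher and 3 lower with CS2 (median 0.36). NPTX1 (1.95 ± 0.17, adjusted p = 2.35e-08) and NPTX2 (1.16 ± 0.11, adjusted p = 3.34e-08), synaptic pentraxins, were higher with CS2. With FB23-2 their values were 0.39 (adjusted p = 0.0704) and -0.12 (adjusted p = 0.355). RGS2, a brake on G protein signalling, was higher with FB23-2 (0.54 ± 0.12, adjusted p = 0.000974) and CS2 (1.31 ± 0.12, adjusted p = 2.86e-08). SCG2, a granin precursor, was higher with FB23-2 (0.82 ± 0.09, adjusted p = 5.39e-07) and CS2 (0.29 ± 0.09, adjusted p = 0.016). INHBA, the activin A subunit, was lower with FB23-2 (-1.47 ± 0.26, adjusted p = 8.36e-05) and CS2 (-2.87 ± 0.30, adjusted p = 1.85e-07).

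**Figure D4:**
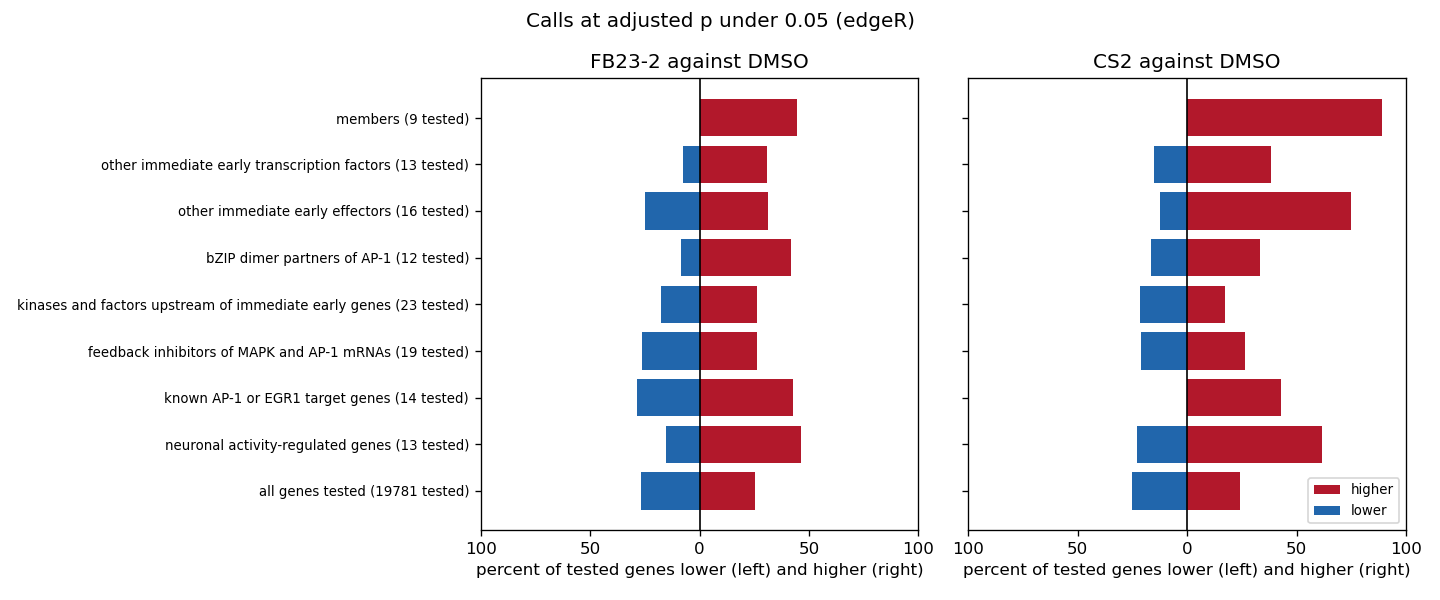
Share of the tested genes of each list called lower (left of 0) and higher (right of 0) at an adjusted p under 0.05, for FB23-2 against DMSO and CS2 against DMSO, with all 19781 genes tested at the bottom. With CS2 the members (8 of 9) and the other immediate early effectors (12 of 16) have the longest bars to the right, against 24.3% of all genes. Among protein-coding genes spanning 10 kb or less, which are not drawn, 32.6% were higher with CS2. Members and lists were chosen with earlier results of these data known, so the bars are a description.

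The likeness of other genes to FOS, JUN and EGR1 was measured as Pearson's r of log2 CPM over the 9 libraries, among 10287 genes whose highest group mean reached 10 CPM. Most like FOS were RGS4 (r = 0.994), WDR47 (0.988), ZNF525 (0.987), PML (0.984) and PRDX6 (0.981). Nearest to JUN were DUSP10 (0.937), a phosphatase of JNK and p38, then CNPY3 (0.935), CDC45 (0.933), WDR45B (0.93) and ZPR1 (0.929). For EGR1 they were IQGAP1 (0.941), CCZ1B (0.926), UBAP2 (0.898), SAP130 (0.889) and MIEN1 (0.888). The libraries fall into 3 treatment groups, so r follows the group means as well as single libraries, and it is given as a description. These are the highest of 10287 values over only 9 libraries, so selection alone can give a high r. No relation between these genes and the members was tested.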

How the data were processed

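Per the labels' protocols, RNA was isolated with TRIzol and mRNA libraries were prepared with a Hieff NGS kit. The authors deposited a table of raw counts, whole numbers for each Ensembl gene. Per the submitters' processing notes, reads were placed on hg38. Aligner, counter, annotation and strandedness: not given in the sources used here. Each library's group and number came from its label, in columns named for them. Of 62754 identifiers, 42343 had a symbol. Gene positions and exon lengths came from GENCODE 29.

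Counts were fitted with edgeR 4.0.16 (R 4.3.3) on all 9 libraries: TMM scaling, filterByExpr with a minimum count of 10 and total of 15, the robust quasi-likelihood test and Benjamini-Hochberg adjustment over all 19781 genes, called at 0.05. CPM and RPKM used TMM-scaled totals. Intervals of 95% came from the SE and a normal quantile, which makes them narrower than the quasi-likelihood test implies. The floor is 3 counts. The intervals, the floor and the p-values cover only the spread between libraries or counting error. The biological coefficient of variation was 0.101, and no 2 libraries of a group agreed within sampling noise. The test was checked on simulated data with 200 genes changed in 1 group and the same dispersion for every gene. In the real data far more genes were called, so the check does not show how the test behaves here. Alternatives were DESeq2 1.42.0, other scalings and filters, an offset for gene span and GC, the replicate number as a block, and each library left out.

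The members and lists were chosen with earlier results of these data known. Named beside the members were, per list and compound, up to 4 genes past the threshold with the largest change and at least 1 CPM in a group, up to 1 abundant gene not past it, FTO, and the 5 genes most like FOS, JUN and EGR1. Some genes that this rule names are not reported here.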

Additional observations from a re-analysis of the deposited data

How the results depend on the processing

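Of 510 member fold changes recomputed under the alternatives, 478 kept their side of the threshold, 27 lost their call and 5 gained one. Of the 478, 16 changed sign, in 7 comparisons of ARC, EGR1, FOSB, FOSL2, JUN and JUNB, and 0 of these were past the threshold in either setting. Members called numbered 3 to 5 with FB23-2 against DMSO, 5 to 8 with CS2 against DMSO and 4 to 6 with FB23-2 against CS2 as each library was left out. The 5 with CS2 came without DMSO replicate 2 and again without DMSO replicate 3, which ended the calls of FOSB, FOSL2 and JUND. Over all genes the calls then ranged from 8795 to 10491 with FB23-2, 8345 to 11024 with CS2 and 10965 to 11848 between the compounds. IER2 was past the threshold as lower with FB23-2 with no filter on low counts (-0.36, adjusted p = 0.00247). With the replicate number as a block, members called were 5 with FB23-2 (IER2 at -0.36, adjusted p = 0.00591, being added), 8 with CS2 and 6 between the compounds, and all genes called were 10698, 10271 and 12136. ARC passed as higher with FB23-2 (0.37, adjusted p = 0.049) with the span and GC correction and the block together. The main fit did not pair libraries by number. Deviations of same-numbered libraries correlated at -0.015 to 0.012 for FB23-2 and DMSO and -0.031 to -0.016 for CS2 and DMSO, over 3 pairs each. For FB23-2 and CS2 the 3 same-numbered pairs gave 0.042 to 0.145, where differently numbered pairs gave -0.12 to 0.019. Some shared structure by number between those groups therefore remains possible. Depth limits FOSB and FOSL1 most.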
